A study of Mus musculus with 8 samples.

Results

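The genes described here are 9 members of the p53-linked route to apoptosis and caspase activation: Fas, Tnfrsf10b, Perp, Bbc3, Pmaip1, Bax, Cycs, Apaf1 and Casp9. They were chosen by name for their known roles, with earlier results of these data known. They were found by gene identifier and make up 9 of the 55385 genes in the table. All 9 passed the filter on low counts that left 17445 genes for testing. RNA-seq was carried out on R1 mouse embryonic stem cells (mESCs), a line of WT genotype grown in N2B27 medium with 2i and Lif. Cells were infected with a lentivirus carrying shRNA1 (3 libraries) or shRNA2 (3 libraries), both directed against Eftud2, a GTPase of the U5 snRNP of the spliceosome, or a non-targeting hairpin (nt-shRNA, 2 libraries). shRNA1 matches the 3′ UTR and shRNA2 the coding sequence. All 3 groups, the control included, had 2 days of infection and 3 days of puromycin selection, so each library is a selected pool of infected cells and not a clone. The replicates are labelled as biological.

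The question was how far these genes differed between cells with either hairpin and control cells, and between the hairpins. In the intrinsic route to apoptosis, p53 can switch on genes of BH3-only proteins, which free Bax to open the outer mitochondrial membrane. Cytochrome c then leaves the mitochondria and binds Apaf1, and the resulting apoptosome activates caspase-9, which cleaves the executioner caspases. Death receptors at the cell surface give a separate entry through caspase-8. Counts of polyA RNA measure transcript levels only, so neither cleavage of a caspase nor cell death was measured. In these bulk libraries, a change in the number of cells that carry a transcript and a change in the RNA per cell cannot be told apart.

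Depth ran from 19569525 to 29871048 counts per library. All 8 pluripotency markers tested were above 1 CPM (counts per gene scaled to the library total, with TMM factors) in every library, and their summed level was between 6583 and 6974 CPM. Within that sum single markers moved apart, with Dppa5a at 2395 and 2512 CPM in the nt-shRNA libraries and 1068 to 1443 CPM in the shRNA2 libraries, Nanog at 892 and 932 CPM against 1487 to 1593 CPM, and Klf4 at 177 and 193 CPM against 418 to 490 CPM. These 3 were chosen after their values were seen. Neural markers, 2 of 4 above 1 CPM throughout, summed to between 16.9 and 19.4 CPM with nt-shRNA, 21.7 and 24.2 CPM with shRNA1 and 32.4 and 46.1 CPM with shRNA2. Of these, Tubb3 carried the rise (9.34 and 11.1 CPM with nt-shRNA, 25.4 to 39.9 CPM with shRNA2), while Sox1 (5.99 and 6.79 against 4.88 to 6.38 CPM) and Pax6 (1.46 and 1.53 against 0.902 to 1.26 CPM) did not. The 2 blood markers summed to between 26.3 and 28.4 CPM with nt-shRNA, 10.5 and 12.7 CPM with shRNA1 and 8.49 and 9.74 CPM with shRNA2, with Ptprc at 0 counts in all 8 libraries. Fibroblast markers summed to between 4.56 and 4.95 CPM with nt-shRNA, 6.52 and 7.34 CPM with shRNA1 and 6.28 and 7.48 CPM with shRNA2. Primitive endoderm markers summed to 23.1 and 23.6, 21.7 to 25.8 and 17.3 to 19.3 CPM in the same groups, and mesoderm markers to 4.599 and 4.87, 5.38 to 6.81 and 7.34 to 8.98 CPM. The part of these marker levels in the results was not tested.

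Eftud2 itself was at 262 and 256 CPM with nt-shRNA, at 232, 229 and 225 CPM with shRNA1, and at 198, 202 and 235 CPM with shRNA2. Both hairpin groups lay below both control libraries. By qPCR the paper reported a larger knockdown than in these counts, and a stronger one with shRNA2 than with shRNA1. It also reported less EFTUD2 protein with either hairpin by western blot. The log2 fold change was -0.18 ± 0.0678 (SE) with shRNA1, which was not called by edgeR's quasi-likelihood test (adjusted p = 0.0514) but in 7 of 20 other settings, over which it ran from -0.25 to -0.06, and -0.29 ± 0.0678 with shRNA2 (edgeR, adjusted p = 0.00122). The 7 included the fits without shRNA2 replicate 2 (adjusted p = 0.0415) or 3 (adjusted p = 0.0215). Trp53, which encodes p53, was at 169 and 188 CPM with nt-shRNA, at 189, 198 and 189 CPM with shRNA1, and at 261, 312 and 250 CPM with shRNA2. Its log2 fold change was 0.11 ± 0.0796 with shRNA1 (edgeR, adjusted p = 0.328) and 0.62 ± 0.0803 with shRNA2 (edgeR, adjusted p = 2.58e-06). The shRNA1 value was called in 3 of 20 other settings, with library size alone (0.22, adjusted p = 0.0410), gene length offsets with the block (0.17, adjusted p = 0.0460) and GC offsets with the block (0.23, adjusted p = 0.00375). It was 0.03 without nt-shRNA replicate 1 and 0.19 without replicate 2.

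The 250 bases before the start site are shown for Fas and Cycs, the 2 members that rose with both hairpins. They are also shown for Bax, the only 1 of the members searched that held the motif. Of the members, 6 matched the RefSeq promoter table (GRCm38.p6), with 8 windows in all. Each window of 300 bases (250 before and 50 after the start) was searched on both strands for the p53 half-site, a palindromic motif of 10 letters. Capitals mark the match. The windows run 5′ to 3′ on the strand of the gene, at chr7:45466899-45467148 (minus strand) for Bax, chr19:34290409-34290658 (plus strand) for Fas and chr6:50566570-50566819 (minus strand) for Cycs.
Bax: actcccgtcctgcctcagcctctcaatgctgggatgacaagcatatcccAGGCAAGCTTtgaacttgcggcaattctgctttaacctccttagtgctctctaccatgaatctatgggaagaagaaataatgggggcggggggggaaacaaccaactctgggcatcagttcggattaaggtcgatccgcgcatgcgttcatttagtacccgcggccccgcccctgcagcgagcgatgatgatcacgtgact
Fas: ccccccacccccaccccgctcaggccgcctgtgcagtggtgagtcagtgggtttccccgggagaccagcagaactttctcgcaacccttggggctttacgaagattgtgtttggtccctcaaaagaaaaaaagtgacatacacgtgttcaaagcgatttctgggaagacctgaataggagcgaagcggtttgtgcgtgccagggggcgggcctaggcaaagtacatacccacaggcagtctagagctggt
Cycs: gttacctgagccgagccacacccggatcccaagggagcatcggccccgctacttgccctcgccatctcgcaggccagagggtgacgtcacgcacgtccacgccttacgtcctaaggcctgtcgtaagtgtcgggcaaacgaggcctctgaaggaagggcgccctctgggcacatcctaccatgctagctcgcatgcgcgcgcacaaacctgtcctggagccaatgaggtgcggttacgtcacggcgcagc
The Bax window held 1 match, which began 201 bases before the start site. The other 7 windows, of Fas, Cycs, Bbc3 (3 windows), Apaf1 and Casp9, held no match. Of all 32851 windows in the table, 2745 (8.36%) held the half-site. A match describes the letters only and does not show that p53 binds there. The search took exact matches within these windows only, so a window without one does not show that a gene lacks a p53 site.

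With shRNA1, 2 of the 9 genes were higher than with nt-shRNA (Fas and Cycs), 2 were lower (Tnfrsf10b and Bbc3) and 5 were not called. Over all tested genes, 13.8% were called higher and 17.1% lower in this comparison. With shRNA2, 4 were higher than with nt-shRNA (Fas, Perp, Bax and Cycs), 2 were lower (Bbc3 and Pmaip1) and 3 were not called, beside 27.2% of all tested genes called higher and 28.7% lower. Set directly against shRNA1, shRNA2 gave 5 of the 9 genes higher (Fas, Tnfrsf10b, Perp, Bax and Cycs) and 1 lower (Pmaip1), beside 16.9% and 18.7% of all tested genes. The median log2 fold change of the 9 genes was -0.06, 0.02 and 0.17 in the 3 comparisons, and that of all tested genes -0.01, 0.00 and 0.00. The genes thus moved in both directions, and the comparisons share libraries, since both hairpins were set against the same 2 control libraries.

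**Figure D1:**
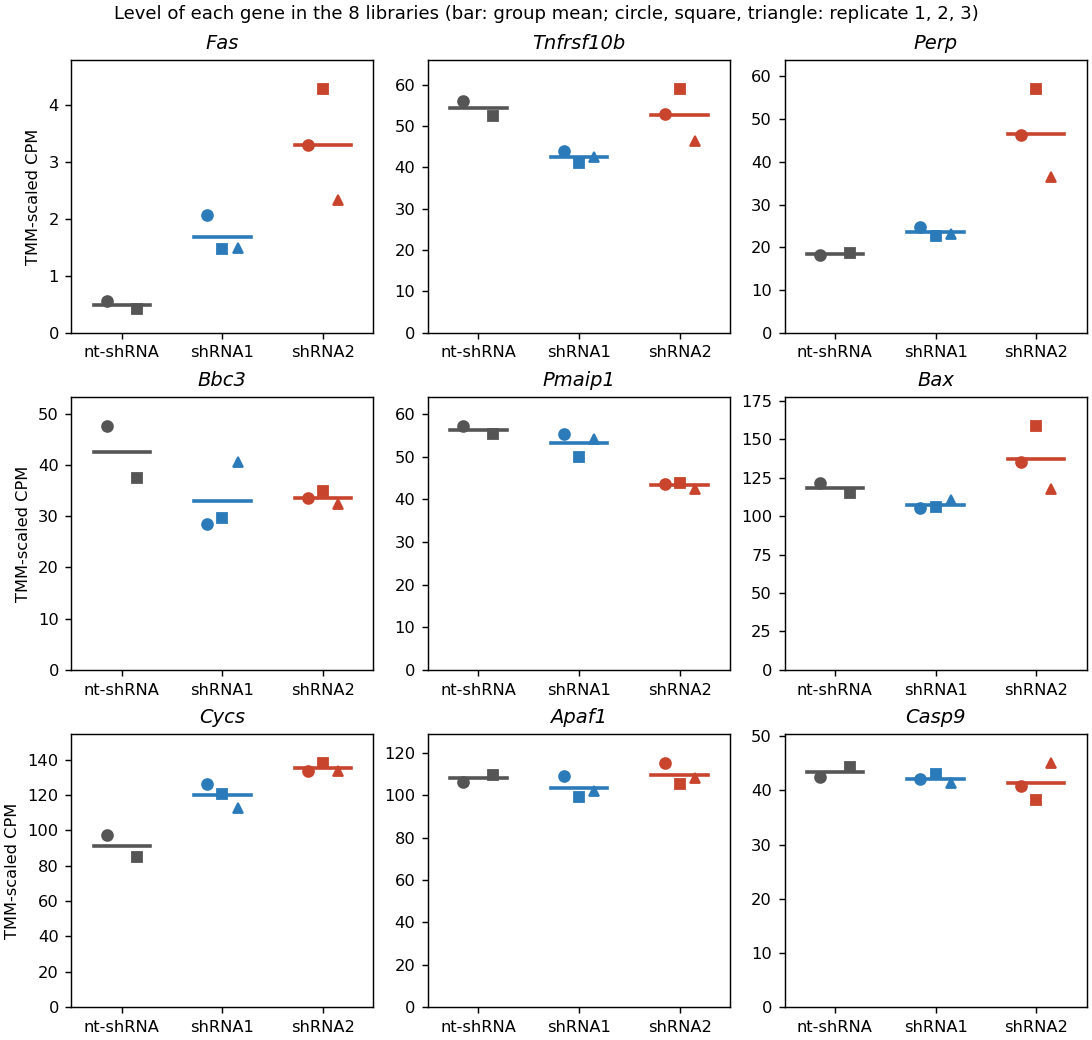
TMM-scaled CPM (y axis, from 0) of each of the 9 genes in nt-shRNA, shRNA1 and shRNA2 libraries (x axis), with a point per library, its shape giving the replicate number, and a bar at the group mean. Fas and Perp lie highest in the shRNA2 libraries, whereas Apaf1 and Casp9 overlap between all 3 groups.

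**Figure D2:**
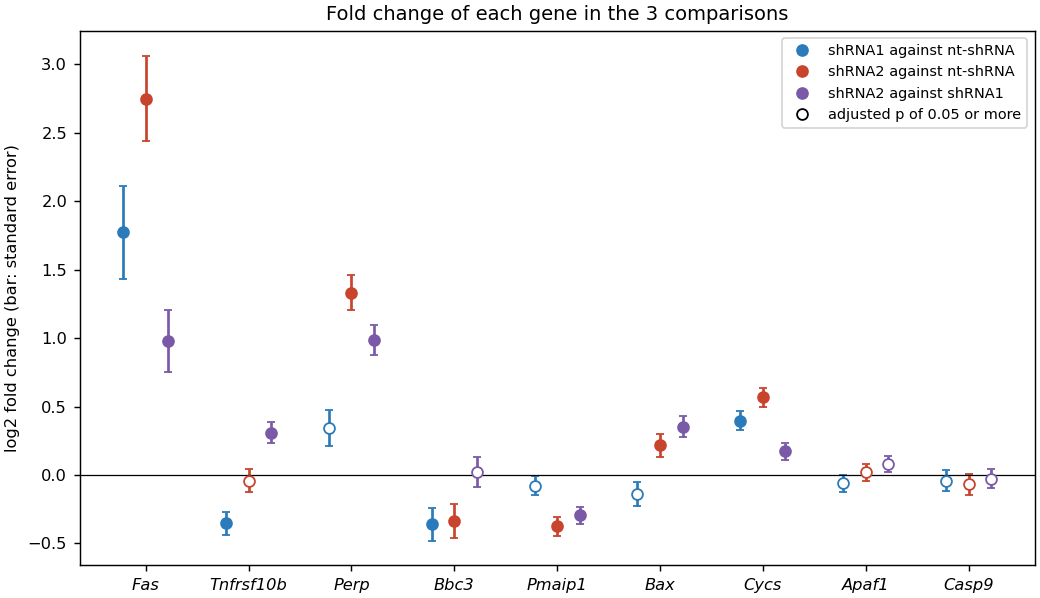
Log2 fold change (y axis) with its standard error for each of the 9 genes (x axis) in the 3 comparisons, filled where the adjusted p was under 0.05. Fas has the highest values, 1.77 with shRNA1 and 2.75 with shRNA2, and the values of Apaf1 and Casp9 lie between -0.07 and 0.08.

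Fas (ENSMUSG00000024778.13, chr19:34290666-34327772, plus strand, GRCm38) encodes the receptor of Fas ligand, which recruits Fadd and caspase-8 when engaged. It was at 0.562 and 0.418 CPM with nt-shRNA, from only 15 and 12 counts. With shRNA1 it was at 2.07, 1.48 and 1.5 CPM (46, 30 and 42 counts), and with shRNA2 at 3.30, 4.28 and 2.34 CPM (71, 95 and 51 counts). The 3 groups did not overlap, with every shRNA1 library above both controls and every shRNA2 library above every shRNA1 library. Such separation was common among all tested genes. With shRNA1, 26.6% lay above and 30.2% below both controls in every library, and with shRNA2 35.4% and 36%. For shRNA2 against shRNA1 the shares were 23.6% and 24.1%. These shares stand beside each such statement for the other genes. Fas was 3.41-fold higher with shRNA1 (log2 fold change 1.77 ± 0.342 SE, edgeR, adjusted p = 0.000637). With shRNA2 it was 6.73-fold higher (log2 fold change 2.75 ± 0.314, edgeR, adjusted p = 5.54e-07), and 1.97-fold higher than with shRNA1 (log2 fold change 0.98 ± 0.227, edgeR, adjusted p = 0.00261). All 3 calls held under each of the 20 other settings.

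Tnfrsf10b (ENSMUSG00000022074.6, chr14:69767472-69784411, plus strand) encodes the mouse receptor of the death ligand TRAIL. It was at 56.1 and 52.5 CPM with nt-shRNA, at 43.9, 41.0 and 42.6 CPM with shRNA1, and at 52.9, 58.9 and 46.4 CPM with shRNA2. The shRNA1 libraries lay below all others, whereas the shRNA2 libraries fell on both sides of the controls. Tnfrsf10b was lower with shRNA1 (log2 fold change -0.35 ± 0.0849, edgeR, adjusted p = 0.00386), a call that was lost without nt-shRNA replicate 1 (log2 fold change -0.30, adjusted p = 0.0648). With shRNA2 the log2 fold change from control was -0.04 ± 0.0847 (edgeR, adjusted p = 0.687), and against shRNA1 it was 0.31 ± 0.0776 (edgeR, adjusted p = 0.00445). The 2 receptors therefore differed with shRNA1, where Fas was called higher and Tnfrsf10b lower. The level per length of Tnfrsf10b was 42.6 ± 6.87 times (SD, n = 2) that of Fas with nt-shRNA, 9.75 ± 1.51 times (n = 3) with shRNA1 and 6.25 ± 1.16 times (n = 3) with shRNA2.

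Perp (ENSMUSG00000019851.8, chr10:18845020-18857073, plus strand) encodes a tetraspan membrane protein of desmosomes that is known as a p53 target in apoptosis. It was at 18.3 and 18.7 CPM with nt-shRNA, at 24.7, 22.6 and 23.2 CPM with shRNA1, and at 46.2, 57.0 and 36.4 CPM with shRNA2. The 3 groups did not overlap and were ordered as for Fas. With shRNA2 Perp was 2.52-fold higher than control (log2 fold change 1.33 ± 0.130, edgeR, adjusted p = 7.63e-08) and 1.98-fold higher than with shRNA1 (log2 fold change 0.99 ± 0.113, edgeR, adjusted p = 4.57e-06), and both calls held under all 20 settings. With shRNA1 the log2 fold change was 0.35 ± 0.132 and just missed the threshold (edgeR, adjusted p = 0.0530). That difference was called in 11 of the 20 other settings, among them the replicate block (log2 fold change 0.45, adjusted p = 0.00671) and the fits without shRNA2 replicate 2 (adjusted p = 0.00992) or replicate 3 (adjusted p = 0.00880). Leaving out a library of the groups compared gave no call in any of the 5 such fits, with an adjusted p of up to 0.198 (without nt-shRNA replicate 1).

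Bbc3 and Pmaip1 encode PUMA and NOXA, BH3-only proteins that bind and neutralise anti-apoptotic members of the BCL2 family and are textbook targets of p53. Bbc3 (ENSMUSG00000002083.13, chr7:16308393-16318205, plus strand) was at 47.5 and 37.4 CPM with nt-shRNA, at 28.4, 29.7 and 40.6 CPM with shRNA1, and at 33.5, 34.99 and 32.3 CPM with shRNA2. The shRNA2 libraries lay below both controls, whereas shRNA1 replicate 3 lay between them. Bbc3 was lower with shRNA1 (log2 fold change -0.36 ± 0.121, edgeR, adjusted p = 0.0299) and with shRNA2 (log2 fold change -0.34 ± 0.121, edgeR, adjusted p = 0.0242). Each call was lost in 6 of the 20 other settings. With GC offsets the log2 fold change was -0.23 with shRNA1 (adjusted p = 0.0730) and -0.14 with shRNA2 (adjusted p = 0.207). Without nt-shRNA replicate 1, the log2 fold change was -0.18 with shRNA1 (adjusted p = 0.436) and -0.16 with shRNA2 (adjusted p = 0.395). The shRNA1 call was also lost without shRNA1 replicate 1 (adjusted p = 0.149) or 2 (adjusted p = 0.127), and the shRNA2 call without shRNA2 replicate 1 (adjusted p = 0.0592) or 3 (adjusted p = 0.0526). Without shRNA1 replicate 3 the shRNA1 value was -0.55, more than 1.5 times the value over all libraries.

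Pmaip1 (ENSMUSG00000024521.8, chr18:66458533-66465565, plus strand) was at 57.1 and 55.2 CPM with nt-shRNA, at 55.3, 49.9 and 54.3 CPM with shRNA1, and at 43.6, 43.8 and 42.5 CPM with shRNA2. The shRNA2 libraries lay close together and below the other 5 libraries, and shRNA1 overlapped the controls. With shRNA2 Pmaip1 was 1.30-fold lower than control (log2 fold change -0.37 ± 0.0699, edgeR, adjusted p = 0.000157) and 1.23-fold lower than with shRNA1 (log2 fold change -0.30 ± 0.0638, edgeR, adjusted p = 0.00149), under all 20 settings. With shRNA1 the log2 fold change was -0.08 ± 0.0693 (edgeR, adjusted p = 0.412), and it was called lower in 1 other setting, GC offsets with the replicate block (-0.19, adjusted p = 0.0360). Neither BH3-only gene was called higher in any comparison with control.

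Bax (ENSMUSG00000003873.11, chr7:45461697-45466898, minus strand) encodes the effector that forms pores in the outer mitochondrial membrane. It was at 121 and 115 CPM with nt-shRNA, at 105, 106 and 110 CPM with shRNA1, and at 135, 159 and 118 CPM with shRNA2. All shRNA1 libraries lay below the controls, and shRNA2 replicate 3 lay between the controls while the other two lay above. Bax was 1.28-fold higher with shRNA2 than with shRNA1 (log2 fold change 0.35 ± 0.0779, edgeR, adjusted p = 0.00175), which held under all 20 settings. Against control the log2 fold change was -0.14 ± 0.0865 with shRNA1 (edgeR, adjusted p = 0.241) and 0.22 ± 0.0867 with shRNA2 (edgeR, adjusted p = 0.0411). The shRNA2 call was lost in 7 of the 20 other settings. It was lost without shRNA2 replicate 2, where the log2 fold change was 0.10 (adjusted p = 0.230), and without nt-shRNA replicate 2 (adjusted p = 0.228) or 1 (adjusted p = 0.0800). It was also lost without shRNA2 replicate 1 (adjusted p = 0.0636) and without shRNA1 replicate 1 (adjusted p = 0.0532) or 2 (adjusted p = 0.0520). Offsets fitted on GC content raised the shRNA2 value to 0.41, and to 0.49 with the replicate block. The same offsets turned the sign of the shRNA1 value, to 0.00632 and to 0.0915 with the block, and neither was called. In the annotation, 192 of the 1576 exonic bases of Bax (12.18%) are shared with Gm45808 on the same strand, and fragments there were not counted for either gene.

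Cycs (ENSMUSG00000063694.5, chr6:50562563-50566538, minus strand) encodes somatic cytochrome c, which carries electrons in respiration and binds Apaf1 once released. It was at 97.2 and 85.0 CPM with nt-shRNA, at 126, 121 and 113 CPM with shRNA1, and at 134, 138 and 133 CPM with shRNA2. The 3 groups did not overlap. Cycs was 1.31-fold higher with shRNA1 (log2 fold change 0.39 ± 0.0691, edgeR, adjusted p = 0.000267) and 1.48-fold higher with shRNA2 (log2 fold change 0.57 ± 0.0692, edgeR, adjusted p = 1.28e-06), under all 20 settings. The difference between the hairpins was 0.17 ± 0.0610 on the log2 scale (edgeR, adjusted p = 0.0333) and was lost in 7 of the 20 other settings. These included the fits without shRNA1 replicate 2 (adjusted p = 0.0703) or 3 (adjusted p = 0.126) and without shRNA2 replicate 1 (adjusted p = 0.0742) or 2 (adjusted p = 0.0836). Cytochrome c has processed pseudogene copies in rodent genomes, and fragments that align to several places were left out, so its level is uncertain.

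Apaf1 (ENSMUSG00000019979.12, chr10:90989311-91082770, minus strand), the scaffold of the apoptosome, was at 106 and 110 CPM with nt-shRNA, at 109, 99.3 and 102 CPM with shRNA1, and at 115, 105 and 108 CPM with shRNA2. Casp9 (ENSMUSG00000028914.13, chr4:141793612-141815976, plus strand), the initiator caspase that the apoptosome activates, was at 42.4 and 44.3 CPM with nt-shRNA, at 42.2, 42.9 and 41.4 CPM with shRNA1, and at 40.9, 38.2 and 45.0 CPM with shRNA2. For both genes all 3 groups overlapped. The log2 fold change of Apaf1 was -0.06 ± 0.0639 with shRNA1 (edgeR, adjusted p = 0.490) and 0.02 ± 0.0640 with shRNA2 (edgeR, adjusted p = 0.815). That of Casp9 was -0.04 ± 0.0769 with shRNA1 (edgeR, adjusted p = 0.720) and -0.07 ± 0.0772 with shRNA2 (edgeR, adjusted p = 0.471). Between the hairpins the values were 0.08 ± 0.0577 for Apaf1 (edgeR, adjusted p = 0.287) and -0.03 ± 0.0700 for Casp9 (edgeR, adjusted p = 0.796). In the annotation, 94 exonic bases of Casp9 (1.809%) overlap Cela2a and Ctrc on the opposite strand. The level per length of Cycs was 2.24 ± 0.261 times (SD, n = 2) that of Apaf1 with nt-shRNA, 3.07 ± 0.148 times (n = 3) with shRNA1 and 3.27 ± 0.195 times (n = 3) with shRNA2.

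The 9 genes also differed in level. Per kilobase of exon, the mean level over all 8 libraries was highest for Bax (76.9 CPM per kb), followed by Cycs (34.8), Pmaip1 (18.4), Bbc3 (16.7), Perp (15.8), Apaf1 (11.8), Tnfrsf10b (9.04), Casp9 (8.11) and Fas (0.967). Between neighbours in this order, the ranges over libraries overlapped for Pmaip1 and Bbc3, Bbc3 and Perp, Perp and Apaf1, and Tnfrsf10b and Casp9. The wide range of Perp (9.37 to 29.2) also overlapped those of Cycs, Pmaip1 and Tnfrsf10b. That order pools groups that differ, and it did not hold in each of them. Perp, at 9.47 CPM per kb with nt-shRNA, 12.0 with shRNA1 and 23.8 with shRNA2, lay below Bbc3 and Apaf1 in both control libraries and above both in all 3 shRNA2 libraries. With shRNA1 it lay below Bbc3 in all 3 libraries and above Apaf1 within each library, although the ranges of Perp and Apaf1 overlapped. Tnfrsf10b lay above Casp9 in both control libraries and below it within each shRNA1 library, with group means of 7.80 and 8.11 CPM per kb there. Their ranges overlapped with either hairpin. The ranges of Pmaip1 and Bbc3 overlapped within every group, although Pmaip1 lay above Bbc3 within each shRNA1 library. Fas remained the lowest of the 9 in every group, at 0.238, 0.817 and 1.605 CPM per kb with nt-shRNA, shRNA1 and shRNA2.

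**Figure D3:**
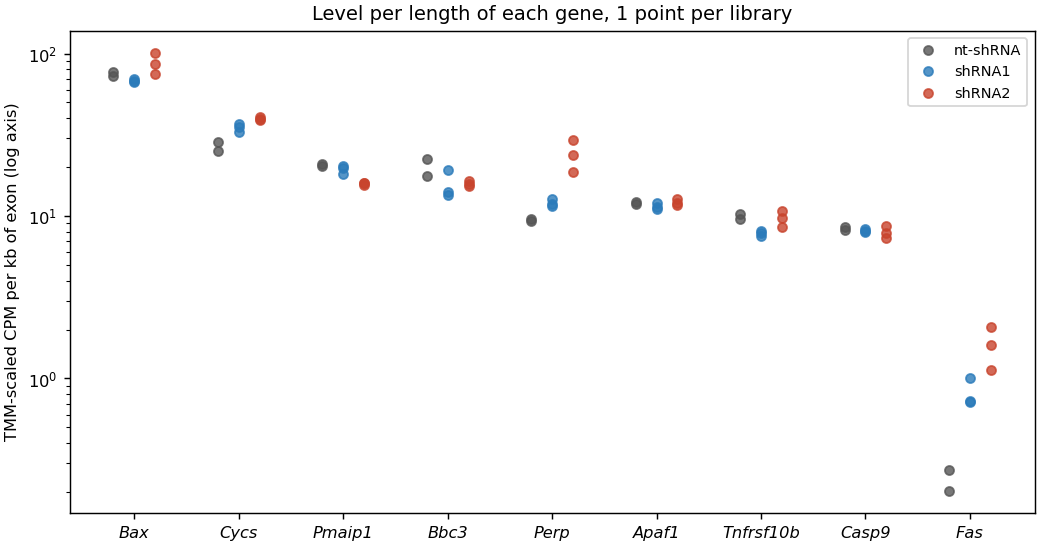
TMM-scaled CPM per kilobase of exon (y axis, log scale) of the 9 genes in order of their mean (x axis), with 1 point per library coloured by group. Bax lies highest at a mean of 76.9 CPM per kb and Fas lowest at 0.967, and Perp changes place most between the groups.

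The 3 shRNA2 libraries were not alike. For 7 of the 9 genes replicate 2 was highest and replicate 3 lowest, an order found in 22.9% of all tested genes. The highest of these libraries exceeded the lowest 1.83-fold for Fas, 1.56-fold for Perp, 1.35-fold for Bax and 1.27-fold for Tnfrsf10b, but only 1.03-fold for Cycs and for Pmaip1. Trp53 had the same order, and replicate 3 had the highest Eftud2 level of the group. These members come from the same libraries, so their orders are not independent, and the part of the remaining Eftud2 level in them was not tested.

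Among all tested genes, those with the pattern most like a member over the 8 libraries were Klhdc10 (Pearson r = 0.996) and Lrrc28 (r = 0.995) for Fas, Prpf8 and Mns1 (both r = 0.997) for Perp, and Ank2 (r = 0.994) and AI662270 (r = 0.991) for Cycs. Such likeness was common, with 409, 708 and 295 genes above 0.95 for Fas, Perp and Cycs. The 8 points share 3 groups and the same libraries.

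The other genes of the pathway were taken from 8 lists of 71 genes, of which 66 were tested. Set against control, shRNA1 gave 9 called higher and 9 lower, while shRNA2 gave 24 called higher and 16 lower. Of all tested genes, 13.8% and 17.1% were called higher and lower with shRNA1, and 27.2% and 28.7% with shRNA2. The median log2 fold change over these 66 genes was 0.00 with shRNA1 and 0.10 with shRNA2. Between the hairpins, 21 were higher with shRNA2 and 11 lower, beside 16.9% and 18.7% of all tested genes. The values that follow are for shRNA2 against nt-shRNA, and each list's counts stand beside the 27.2% and 28.7% of all tested genes called higher and lower there. In the order below, the median log2 fold changes of the lists were 0.22, 0.11, -0.05, 0.06, 0.09, 0.26, -0.10 and 0.19, and that of all tested genes was 0.00. With so few genes in a list, these counts and medians are a description only.

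Of the death ligands and receptors, 5 of 8 were tested, 1 rose and 2 fell. Tnfrsf21, the death receptor DR6, fell by 0.69 ± 0.0780 on the log2 scale (edgeR, adjusted p = 4.72e-07). Tnfrsf25, the receptor DR3, fell by 0.87 ± 0.222 from a low level of 2.27 CPM (edgeR, adjusted p = 0.00251). Tnfrsf22, a decoy receptor of TRAIL, rose by 0.25 ± 0.0992 (edgeR, adjusted p = 0.0407). That call was lost in 9 of 20 other settings, among them the replicate block (0.23, adjusted p = 0.0622) and DESeq2 (0.25, adjusted p = 0.0546). It was also lost without shRNA1 replicate 2 (0.25, adjusted p = 0.0561), or shRNA2 replicate 1 (0.24, adjusted p = 0.0957) or 3 (0.24, adjusted p = 0.0736). Without nt-shRNA replicate 1, where the call was lost too, the log2 fold change fell to 0.13. The ligands Fasl, Tnfsf10 and Tnf did not pass the filter on low counts.

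Of the death receptor signalling complex, 2 of 7 were called higher and none lower. With the replicate block Tradd, an adaptor of TNF receptors, was called lower (-0.30, adjusted p = 0.0124, against -0.23 and 0.0605 without it). Ripk1, a kinase of that complex, went from 4.57 to 14.2 CPM (log2 fold change 1.63 ± 0.167, edgeR, adjusted p = 1.42e-07). Fadd, the adaptor that joins Fas to caspase-8, went from 3.26 to 6.58 CPM (log2 fold change 1.01 ± 0.170, edgeR, adjusted p = 5.21e-05). The other 5 were not called.

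Of the BCL2 family partners, 12 of 13 were tested, 3 rose and 4 fell, of which Bcl2l1, the anti-apoptotic BCL-XL gene, was not called with the replicate block (-0.19, adjusted p = 0.0920, against -0.22 and 0.0488 without it). Tradd and Bcl2l1 were singled out after their values were seen. Bmf, a BH3-only gene, fell by 0.98 ± 0.122 (edgeR, adjusted p = 1.57e-06), and Bid, the BH3-only protein that caspase-8 cleaves, rose by 0.45 ± 0.0671 (edgeR, adjusted p = 1.28e-05). Of the initiator and executioner caspases and the PIDDosome, 2 of 6 rose and 2 fell. Casp6, an executioner caspase, fell by 0.71 ± 0.112 (edgeR, adjusted p = 2.68e-05). Pidd1, which assembles the platform for caspase-2, rose by 0.64 ± 0.106 (edgeR, adjusted p = 4.57e-05).

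Of the genes for cytochrome c maturation and apoptosome regulation, 2 of 8 rose and 1 fell. Vdac1, a channel of the outer mitochondrial membrane, fell by 0.36 ± 0.0587 (edgeR, adjusted p = 3.57e-05), and Hspa4, an HSP70-family chaperone, rose by 0.33 ± 0.0614 (edgeR, adjusted p = 0.000151). Of the caspase inhibitors and their antagonists, 5 of 8 rose and 1 fell. Xaf1, an antagonist of XIAP, rose by 0.75 ± 0.0842 (edgeR, adjusted p = 4.55e-07), and Birc2, which encodes cIAP1, fell by 0.40 ± 0.0653 (edgeR, adjusted p = 3.83e-05). The list thus holds changed genes of both kinds, inhibitors and antagonists.

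Of the death substrates and nucleases, 3 of 8 rose and 3 fell. Acin1, a nuclear caspase substrate, rose by 0.35 ± 0.0664 (edgeR, adjusted p = 0.000161). Dffb, the caspase-activated DNase, rose by 0.56 ± 0.141 (edgeR, adjusted p = 0.00223). Xkr8, the caspase-activated scramblase, fell by 0.47 ± 0.125 (edgeR, adjusted p = 0.00330).

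Of the other p53-linked apoptosis genes, 12 of 13 were tested, 6 rose and 3 fell. Trp53inp1, a p53-induced nuclear protein, went from 221 to 405 CPM (log2 fold change 0.87 ± 0.0818, edgeR, adjusted p = 4.75e-08). Trp73, the p53 relative p73, went from 3.31 to 14.0 CPM (log2 fold change 2.08 ± 0.231, edgeR, adjusted p = 3.89e-07). Ppp1r13l, which encodes the p53 inhibitor iASPP, fell by 0.70 ± 0.0906 (edgeR, adjusted p = 2.57e-06).

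**Figure D4:**
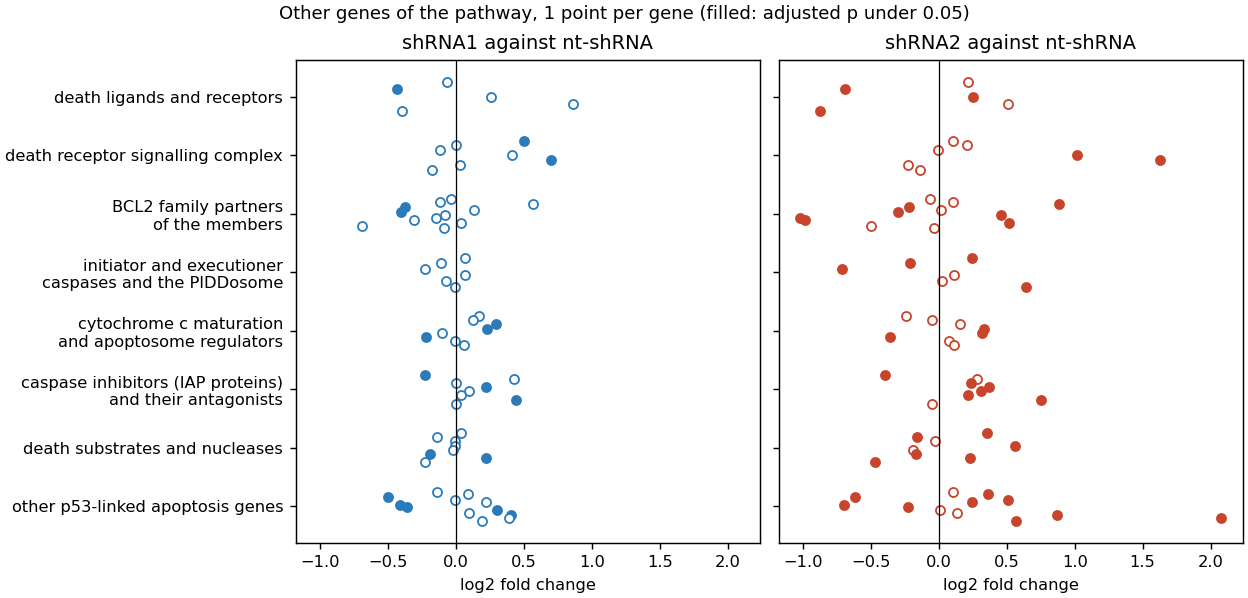
Log2 fold change (x axis) of the other pathway genes in 8 lists (y axis), 1 point per gene, for shRNA1 (left) and shRNA2 (right) against nt-shRNA, filled where the adjusted p was under 0.05. Genes of most lists lie on both sides of 0, with 24 called higher and 16 lower for shRNA2.

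**Figure D5:**
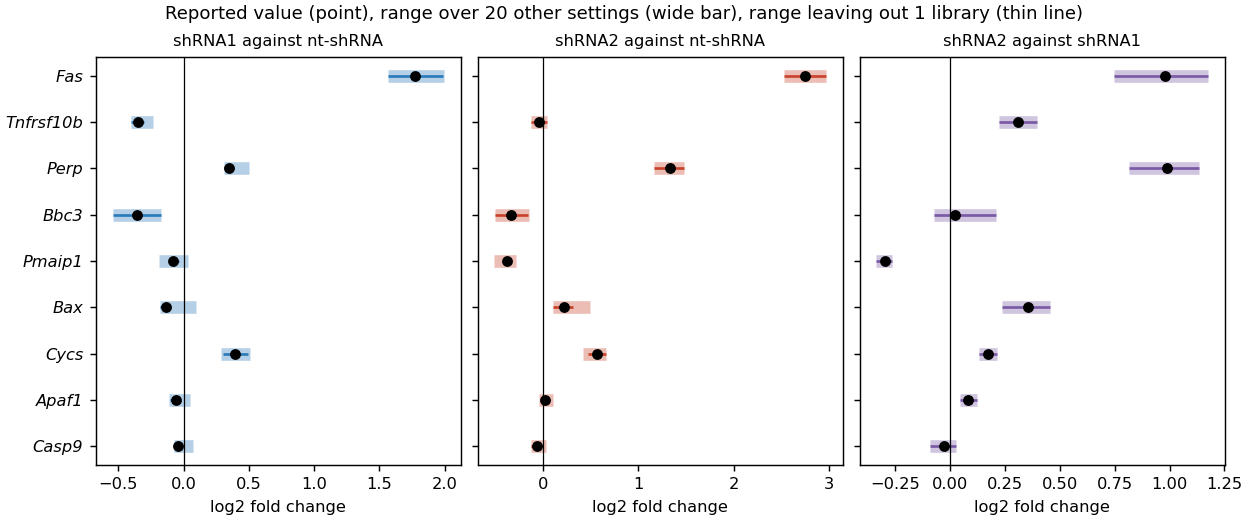
Log2 fold change (x axis) of the 9 genes (y axis) in the 3 comparisons, with the reported value as a point, the range over the 20 other settings as a wide bar and the range when each library was left out in turn as a thin line. The bars of Fas and of Cycs stay above 0 in all 3 panels, and those of Apaf1 and Casp9 against nt-shRNA cross 0.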

How the data were processed

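The 8 libraries were made from polyA RNA of R1 mESCs with NEBNext Ultra II. The authors aligned reads to GRCm38 (mm10) with STAR and counted exonic fragments with featureCounts 1.6.2 on GENCODE M24, and the deposited table holds raw counts per gene. By the default settings of the counter, strand was not used and fragments that aligned to several places or touched several genes were left out. Symbols were matched by gene identifier to GENCODE M21 for 55144 of 55385 genes. No sample column was left unused (0).

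The tests were run with edgeR 4.0.16 under R 4.3.3. Genes passing filterByExpr (minimum count 10, 17445 genes) were normalised by TMM and fitted with 1 coefficient per group over all 8 libraries (glmQLFit, glmQLFTest). A gene was called at a Benjamini-Hochberg adjusted p under 0.05 over all tested genes. Standard errors came from the F statistic. Libraries of the same group differed by a mean chi-square of 2.88 to 10.8 per gene, so none repeats another within sampling noise. The highest value, 10.8, was that of the nt-shRNA libraries, and pairs within a hairpin ran from 2.88 to 7.48. The code was tested on simulated counts. A first criterion over all changed genes was not met, since 2-fold changes in genes with few counts were often missed, and the criterion was then set on genes with more counts. A gene with few counts that was not called may therefore have changed.

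Named genes were the 9 members, Eftud2, Trp53, the 2 genes of each pathway list with the smallest adjusted p under shRNA2 with the first called gene of the opposite direction, and the 2 genes most like each of the 3 members with the widest range of group means. The members and lists were chosen with earlier results of these data known. Alternatives were DESeq2 1.42.0, other scalings and filters, gene length and GC offsets, thinning, the replicate number as a block, and each library left out. GC offsets used the longest GENCODE M21 transcript of a gene, which was chosen after seeing the data, as were the alternatives for the fold changes of Eftud2, Trp53 and single list genes. Figures were drawn with matplotlib 3.10.9.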

Additional observations from a re-analysis of the deposited data

Results flagged for a closer look

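The effects of the 2 hairpins differed for 6 of the 9 genes by the direct test of shRNA2 against shRNA1 (edgeR, called at an adjusted p under 0.05), with 5 higher and 1 lower, beside 16.9% of all tested genes called higher and 18.7% lower. The difference on the log2 scale was 0.98 for Fas, 0.99 for Perp, 0.35 for Bax, 0.31 for Tnfrsf10b and 0.17 for Cycs, and Pmaip1 differed by -0.30. For Cycs the call was lost in 7 of 20 other settings, and for the other 5 genes it held in all 20. The hairpins differ in sequence and in the part of the Eftud2 transcript they match. In these counts, the Eftud2 level was not called different between them (log2 fold change -0.11, edgeR, adjusted p = 0.164). It was -0.19 without shRNA2 replicate 3 (edgeR, adjusted p = 0.0127) and -0.07 without shRNA2 replicate 1 (edgeR, adjusted p = 0.500). By qPCR the paper reported a stronger knockdown with shRNA2. Effects of dose and of hairpin therefore cannot be told apart.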

How the results depend on the processing

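The calls of Fas and Cycs with both hairpins, and of Perp and Pmaip1 with shRNA2, held in all 20 other settings. With library size alone, the median of all genes moved to 0.11 with shRNA1 and 0.09 with shRNA2, genes called higher with shRNA1 came to 4101 and lower to 1713, and the share of calls that were higher rose from 44.7% to 70.5% with shRNA1 and from 48.7% to 58.9% with shRNA2. Changes here are read against that shift. That setting left 1 member lower with each hairpin, and 17 list genes higher with shRNA1 and 10 lower with shRNA2. GC offsets also left 1 member lower with each hairpin, GC offsets with the replicate block left 1 lower with shRNA2 and gave 3 lower with shRNA1, where Pmaip1 was gained (-0.19, adjusted p = 0.0360), and thinned counts left 1 lower with shRNA1. Where these counts fell, the lost call was Bbc3. Leaving out 1 library gave 0 to 2 members lower with shRNA1 and 1 to 2 with shRNA2, and 1248 to 2649 genes higher and 1700 to 3254 lower with shRNA1, the fewest without nt-shRNA replicate 1.

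Some values near 0 that were not called changed sign. With library size alone, Pmaip1 (0.0347), Apaf1 (0.0512) and Casp9 (0.0721) did so with shRNA1, Tnfrsf10b (0.0464) and Casp9 (0.0210) with shRNA2, and Bbc3 (-0.00146) between hairpins. That setting moves all genes of a comparison alike, so these sign changes say nothing of single genes. The median of all tested genes there was 0.11 with shRNA1, 0.09 with shRNA2 and -0.03 between hairpins. With GC offsets, alone and with the replicate block, Bax came to 0.00632 and 0.0915 and Casp9 to 0.0286 and 0.0191 with shRNA1, Apaf1 to -0.0401 and -0.0419 and Casp9 to 0.0288 and 0.0194 with shRNA2, and Casp9 to 0.000146 and 0.000251 between hairpins. Thinned counts put Casp9 at 0.00287 with shRNA1. With shRNA2, Apaf1 was -0.00378 without the filter and -0.0149 and -0.00851 with gene length offsets alone and with the block, where Tnfrsf10b was 0.0152. Leaving out 1 library, Tnfrsf10b ran from -0.126 to 0.0437 and Apaf1 from -0.0127 to 0.0509 with shRNA2, and Bbc3 from -0.0738 to 0.209 and Casp9 from -0.0909 to 0.0282 between hairpins. The cause of the sign changes in the other settings was not tested.

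The replicate number was tried as a block. Between the hairpins, deviations from the group mean in the 3 same-numbered pairs had an r of 0.02 to 0.07. With nt-shRNA, r lay between -0.03 and 0.01. There the 2 control libraries mirror each other around their mean, so that check cannot decide on pairing. In all, 4 of 8 libraries correlated best with their own number. In its qPCR, the paper compared each hairpin replicate with the corresponding control replicate. The main fit did not take the numbers as pairs. The block moved no count of members by over 1.5 times. It moved 3 list counts by over 1.5 times: death receptor complex lower with shRNA2 from 0 to 1 (Tradd), death ligands and receptors higher with shRNA2 from 1 to 0 (Tnfrsf22), and caspases lower with shRNA1 from 0 to 1 (Casp6, -0.30, adjusted p = 0.0344). It called Perp with shRNA1 (0.45) and Eftud2 with shRNA1 (log2 fold change -0.21, edgeR, adjusted p = 0.0206).

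With 2 control libraries the spread rests on all groups, and a fit without one of them assumes that the other varies like the hairpin libraries. Fas rests on 12 and 15 counts in the controls.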
